A study of Canis lupus familiaris with 13 samples.

Results

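Transforming growth factor beta (TGF-beta) genes were measured in primary soft tissue sarcomas of dogs, cancers of connective tissue. The genes are the ligands TGFB1, TGFB2 and TGFB3, the latent binding proteins LTBP1 and LTBP2, the receptors TGFBR1, TGFBR2 and TGFBR3, the inhibitor SMAD7 and the matrix protein TGFBI. They were found by their symbol in the annotation of the array platform, which gave 24 probe sets of the 42924 tested, between 1 and 6 per gene. A probe set is a group of short probes on the array that reads 1 transcript. The array names 15115 genes in all. The 10 genes were chosen with the difference between metastatic and non-metastatic tumours already known, and TGFBI was selected on the large size of that difference. Their differences in that comparison are therefore given as a description without p-values.

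An Affymetrix canine array was used for biopsies of 13 untreated primary tumours. Metastatic disease was recorded for 5 tumours (MET1 to MET5), and the non-metastatic group held 8 (NM1 to NM8) that had not spread for at least 1 year. All were primary tumours, so neither group is tissue from a metastasis. The labels name no histological subtype, breed, age or site, and give no dog of origin, so errors cover the spread between these samples.

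TGF-beta ligands are secreted in a latent complex with their own propeptide, which latent binding proteins tether to matrix fibres. Once released, the ligand binds the type II receptor TGFBR2, which phosphorylates the type I receptor TGFBR1, and the latter phosphorylates SMAD2 and SMAD3. TGFBR3, also called betaglycan, is a co-receptor that presents ligand, above all the TGFB2 product, and SMAD7 is a feedback inhibitor of the type I receptor. TGFBI is a secreted protein that binds integrins and collagens and takes its name from its induction by TGF-beta. The pathway restrains growth of many normal cells and drives matrix production by mesenchymal cells.

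Values are log2 intensities, so a difference of 1 is a doubling, and differences are metastatic minus non-metastatic. Sample medians lay between 6.71 and 6.94. Spike-in controls, which are polyadenylated bacterial RNAs added to a sample ahead of labelling, gave ordinary signal in 9 samples (all 5 metastatic, NM5 to NM8) and none in NM1, NM3 and NM4. In NM2 they fell off steeply, with a 3′ minus 5′ value of 3.54 against at most 0.959 elsewhere. The 36 spike-in probe sets read between 2.63 and 7.16 in the 3 samples without spike-in, so a level not above 7.16 is not told apart from a probe set without target. The 3′ probe set of ACTB read above the 5′ one by 1.40 to 2.87 in metastatic and by 0.39 to 3.14 in non-metastatic samples, a gap that grows as RNA breaks down. It was below every metastatic sample in NM1 (0.64), NM3 (0.39), NM4 (0.88), NM7 (1.31) and NM8 (1.23), and highest in NM2 (3.14). NM1, NM3 and NM4, without spike-in, had the smallest gaps and also the lowest medians (6.71 to 6.74, against 6.87 or more). Connective tissue markers were well above the range read without target, with group means above 7.16 for all 10 measured, while all 6 measured epithelial markers had both means not above it.

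TGFBI was higher in metastatic tumours, and TGFB2, TGFBR2 and TGFBR3 were lower. At 1 probe set per gene, that of highest mean level, the differences were 2.60 ± 0.43 (SE) for TGFBI, -2.54 ± 0.52 for TGFB2, -0.94 ± 0.21 for TGFBR2 and -1.54 ± 0.39 for TGFBR3. The other 6 genes differed by between -0.21 and 0.83. In the fit over all probe sets (limma, Benjamini-Hochberg adjusted p under 0.05), 10 of the 24 member probe sets passed, 1 higher and 9 lower, where 4.9% of all probe sets passed, 1.56% higher and 3.34% lower. Those 10 belong to 4 genes, and nothing is read from this count because the same comparison picked the genes. The median difference was -0.44 over the 24 probe sets and 0.05 over all probe sets.

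**Figure D1:**
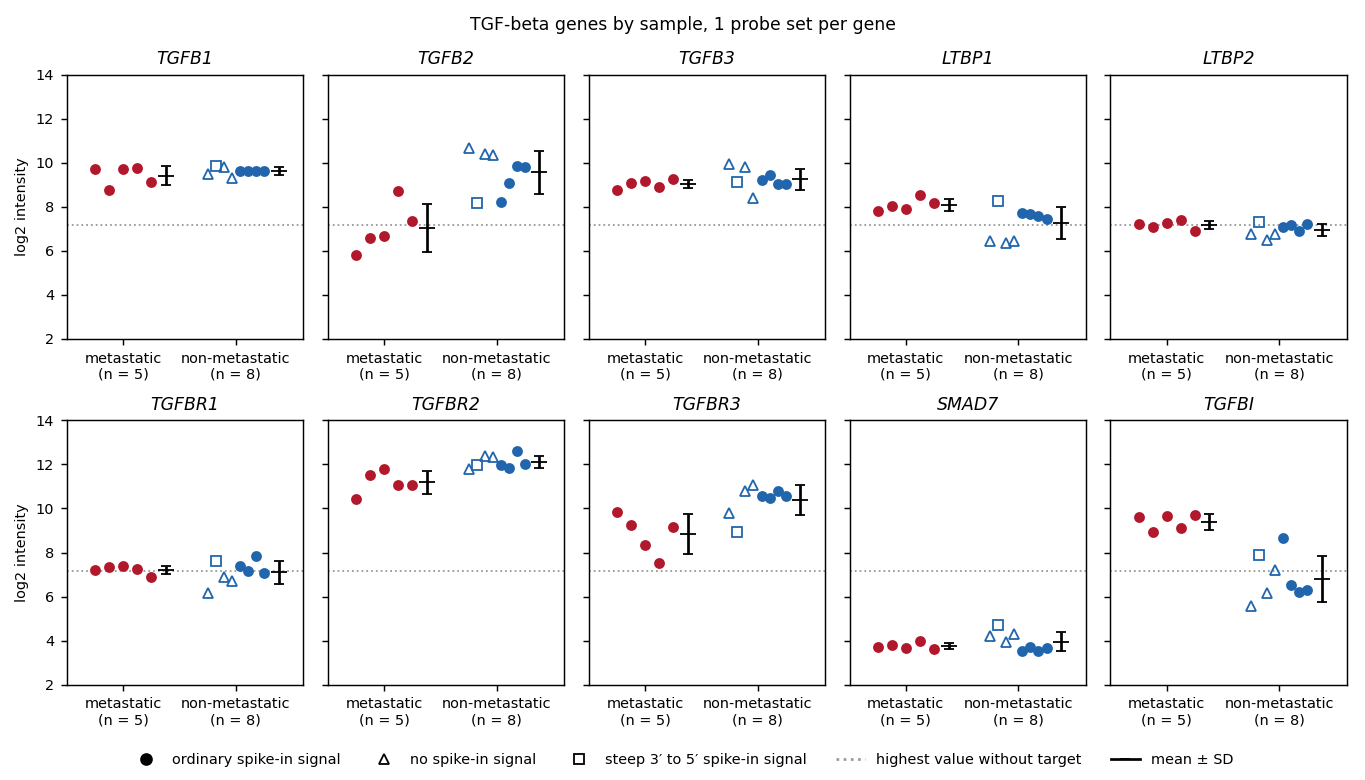
Log2 intensity of the 10 TGF-beta genes in each sample, 1 probe set per gene, with metastatic samples in red and non-metastatic samples in blue. Symbols mark the spike-in signal of the sample, black bars are mean ± SD, and the dotted line at 7.16 is the top of the range read without target. TGFBI lies higher and TGFB2, TGFBR2 and TGFBR3 lie lower in the metastatic samples, while SMAD7 is below the dotted line in all samples.

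TGFBI had 1 probe set. It read 9.59 in MET1, 8.94 in MET2, 9.67 in MET3, 9.09 in MET4 and 9.72 in MET5, a mean of 9.40 ± 0.36 (SD, n = 5). In non-metastatic tumours it ran from 5.56 in NM1 to 8.65 in NM5, with a median of 6.40 and a mean of 6.80 ± 1.03 (SD, n = 8). Every metastatic tumour was above every non-metastatic tumour, a pattern seen in 1.18% of all probe sets. NM5 (8.65) came nearest to the lowest metastatic tumour, NM2 (7.88) and NM4 (7.19) followed, and the other 5 non-metastatic tumours were between 5.56 and 6.51. These 5 values are not above 7.16, so the size of the difference, 6.06-fold on the linear scale, is not exact.

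Among the ligands, TGFB2 was the one with a large difference. Its chosen probe set read 5.81 in MET1, 6.58 in MET2, 6.67 in MET3, 8.72 in MET4 and 7.37 in MET5, a mean of 7.03 ± 1.09 (SD, n = 5). Non-metastatic tumours ran from 8.18 in NM2 to 10.65 in NM1, with a median of 9.84 and a mean of 9.57 ± 0.97 (SD, n = 8). The groups overlapped through 1 metastatic tumour, since MET4 was above NM2 (8.18) and NM5 (8.22). The other 4 metastatic tumours were below every non-metastatic one, and the 3 lowest were not above 7.16, so the size of the difference is not exact. The other TGFB2 probe set differed by -2.28 ± 0.53 (SE), and the 2 probe sets followed each other closely within groups (r = 0.962 over 13 samples).

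TGFB1, the ligand most widely made by immune and stromal cells, differed little. It read 9.71 in MET1, 8.77 in MET2, 9.70 in MET3, 9.75 in MET4 and 9.12 in MET5, against 9.31 to 9.84 with a median of 9.63 in non-metastatic tumours. MET2 and MET5 were below every non-metastatic tumour, and the difference was -0.21 ± 0.17 (SE). The SD was 0.443 (n = 5) among the metastatic and 0.171 (n = 8) among the non-metastatic tumours. Within the latter it was 0.0129 (n = 4) in NM5 to NM8 and 0.26 (n = 3) in NM1, NM3 and NM4.

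TGFB3, a ligand known from palate and wound development, had 3 probe sets that did not give 1 answer. The probe set of highest level ran from 8.76 to 9.24 in metastatic and from 8.39 to 9.92 in non-metastatic tumours, a difference of -0.21 ± 0.22 (SE). Another spread widely, from 5.76 in MET1 to 8.15 in MET5 and from 6.32 in NM2 to 9.96 in NM1, and differed by -1.12 ± 0.62. Only 3 of 5 metastatic and 5 of 8 non-metastatic samples were above 7.16 there, so the size of that difference is not exact. The third was below 7.16 in every sample, with a highest value of 5.22. The mean of the 3 probe sets, with that dim one included, differed by -0.73 ± 0.37, and the groups overlapped at each of the 3.

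**Figure D2:**
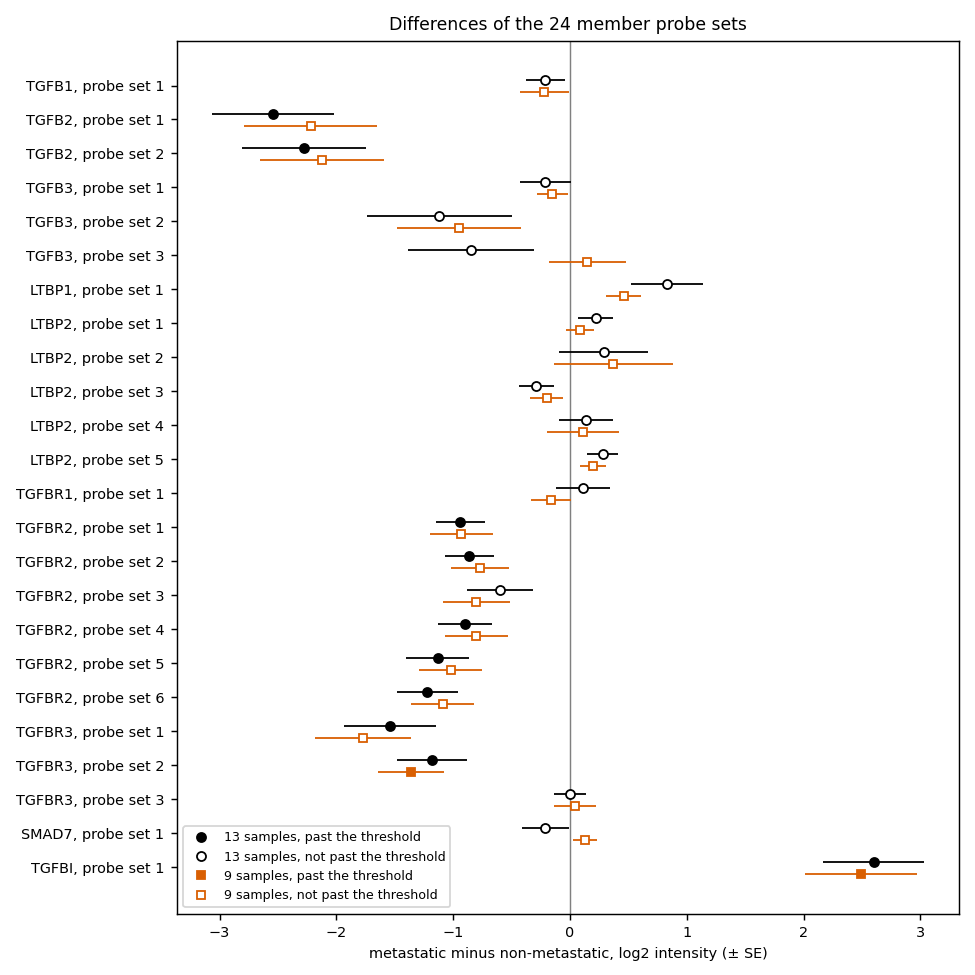
Metastatic minus non-metastatic difference in log2 intensity, ± SE, for each of the 24 probe sets, from all 13 samples (black circles) and from the 9 samples with ordinary spike-in signal (orange squares). Filled symbols passed the threshold of 0.05 in the fit over all probe sets. TGFBI stands at 2.60 and 2.49, and all 6 probe sets of TGFBR2 are below 0.

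The type II receptor TGFBR2 was lower in metastatic tumours at all 6 of its probe sets, by between 0.60 and 1.22. Its chosen probe set read 10.44 in MET1, 11.51 in MET2, 11.81 in MET3, 11.06 in MET4 and 11.07 in MET5, a mean of 11.18 ± 0.52 (SD, n = 5). Non-metastatic tumours ran from 11.79 in NM1 to 12.61 in NM7, with a median of 12.00 and a mean of 12.11 ± 0.29 (SD, n = 8). MET3 lay 0.02 above NM1, and no other pair overlapped. The probe set with the largest difference averaged 8.63 ± 0.55 (SD, n = 5) in metastatic and 9.85 ± 0.47 (SD, n = 8) in non-metastatic tumours, and at that probe set and at 1 other every metastatic tumour was below every non-metastatic one, as for 1.45% of all probe sets. MET1 was the lowest sample at all 6 probe sets.

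TGFBR3, the co-receptor, was lower at 2 of its 3 probe sets. The chosen one read 9.85 in MET1, 9.23 in MET2, 8.36 in MET3, 7.54 in MET4 and 9.18 in MET5, a mean of 8.83 ± 0.90 (SD, n = 5). In non-metastatic tumours it ran from 8.94 in NM2 to 11.06 in NM4, with a median of 10.57 and a mean of 10.37 ± 0.68 (SD, n = 8). The overlap came from NM2 and NM1 (9.81), and the other 6 non-metastatic tumours were at 10.48 or more, above every metastatic one. The next probe set differed by -1.18 ± 0.30 (SE) and tracked the first within groups (r = 0.982 over 13 samples), while the third was below 7.16 in every sample and differed by 0.00 ± 0.14.

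TGFBR1, the type I receptor kinase, had 1 probe set, with means of 7.21 ± 0.19 (SD, n = 5) and 7.11 ± 0.53 (SD, n = 8) and a difference of 0.11 ± 0.23 (SE). Its metastatic values, 6.90 to 7.39, lay inside the non-metastatic range of 6.16 to 7.82. SMAD7 read between 3.61 and 3.97 in metastatic and between 3.55 and 4.73 in non-metastatic tumours, so its transcript was not told apart from probe sets without target, and its difference of -0.21 ± 0.20 carries no reading of its level.

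LTBP1, which anchors the latent ligand to the matrix, read 7.79 in MET1, 8.02 in MET2, 7.89 in MET3, 8.51 in MET4 and 8.15 in MET5. The non-metastatic tumours fell into separate ranges by spike-in signal, at 6.36 to 6.45 in NM1, NM3 and NM4, 7.46 to 7.71 in NM5 to NM8, and 8.28 in NM2. The difference over all 13 samples was 0.83 ± 0.31 (SE), and 0.46 ± 0.15 among the 9 samples with ordinary spike-in signal, where every metastatic tumour was above every non-metastatic one (9.33% of all probe sets separate the groups there in either direction). LTBP2, a related protein that binds elastic fibres but not the latent ligand, differed by between -0.29 and 0.29 at its 5 probe sets. Most of its values were not above 7.16, and at the chosen probe set the means were 7.17 ± 0.18 (SD, n = 5) and 6.96 ± 0.28 (SD, n = 8).

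The differences of TGFBI, TGFB2, TGFBR2 and TGFBR3 were of similar size in the 9 samples with ordinary spike-in signal, at 2.49 ± 0.48 (SE), -2.22 ± 0.57, -0.93 ± 0.27 and -1.77 ± 0.41. With 5 samples against 4, fewer probe sets passed, and of the members these were TGFBI and 1 TGFBR3 probe set (-1.36 ± 0.28), 2 of 24 where 2.78% of all probe sets passed, 0.578% higher and 2.2% lower. Without NM1, NM3 and NM4, which keeps NM2, 0 of the 24 passed (limma), and 207 of all 42924 probe sets did. An unadjusted p under 0.05 was found in that fit for 11 of the 24 and for 6167 of the 42924. Nothing is read from the 11, because the same comparison picked the genes. In the 13 fits without 1 sample the difference ran from 2.42 to 2.86 for TGFBI, from -2.96 to -2.23 for TGFB2, from -1.09 to -0.75 for TGFBR2 and from -1.80 to -1.22 for TGFBR3. The chosen probe set passed in all 13 of these fits for TGFBI and TGFB2, in 9 for TGFBR2 and in only 3 for TGFBR3. The other TGFB2 probe set passed in only 5 of the 13. Singly leaving out MET1, MET3, MET4, MET5, NM3, NM4, NM5, NM7 or NM8 took the number of member probe sets that passed from 10 to between 3 and 6, while LTBP1 was added without NM2. With the ACTB 3′ to 5′ difference as covariate the differences were 2.34 for TGFBI, -2.09 for TGFB2, -0.89 for TGFBR2 and -1.45 for TGFBR3. With the spike-in class as a block they were 2.49, -2.21, -0.93 and -1.77. All metastatic samples are of the ordinary class, so these differences come from the same 9 samples and are no separate check. The share of RNA quality or of spike-in handling in these differences was itself not tested.

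A comparison that had no part in choosing the genes was that of NM5 to NM8 with NM1, NM3 and NM4, all non-metastatic but with and without spike-in signal. The split itself was chosen with earlier results of these data known, and the same samples entered the comparison that picked the genes. LTBP1 was 1.19 ± 0.11 (SE) higher in the samples with spike-in, at 7.61 ± 0.11 (SD, n = 4) against 6.42 ± 0.05 (SD, n = 3), and this passed over all probe sets (limma adjusted p = 0.00309). It was higher in 4 of 4 samples and passed in all 7 fits without 1 sample. Its values in NM1, NM3 and NM4 are not above 7.16, so the size of this difference is not exact. SMAD7 (-0.55 ± 0.13, limma adjusted p = 0.0229) and the dim TGFB3 probe set (-1.90 ± 0.47, limma adjusted p = 0.0265) passed too, with the values of both sets of samples not told apart from probe sets without target, each in 4 of 7 fits without 1 sample. SMAD7 was lost without NM1, NM4 or NM5 and TGFB3 without NM5, NM7 or NM8. These 3 of 24 probe sets are 12.5%, while 21.7% of all probe sets passed in this comparison, 15.8% higher and 5.85% lower in the samples with spike-in. The chosen probe sets of TGFBI (0.61 ± 0.65), TGFB2 (-1.22 ± 0.38), TGFBR2 (-0.05 ± 0.23) and TGFBR3 (0.06 ± 0.28) did not pass, with limma adjusted p of 0.528, 0.0582, 0.894 and 0.904.

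TGFBI was next compared with the other 9 genes within groups, on values centred on the group mean, which removes the difference that chose them. TGFB2 had the strongest relation and it was negative, with Pearson r = -0.659 and Spearman rho = -0.571 over 13 samples (permutation p = 0.0112 and 0.0601). Adjusted over the 9 relations these became 0.101 and 0.541, so 0 of 9 passed and 1 had an unadjusted permutation p under 0.05. Without NM5 and NM2, the samples farthest from the median of centred TGFBI, r was -0.366, so the relation rests in part on them. NM2 and NM5 have the lowest TGFB2 and the highest TGFBI of the non-metastatic group. Within the 9 samples with ordinary spike-in signal r was -0.555 (permutation p = 0.0621), and among the 8 non-metastatic tumours it was -0.82 (permutation p = 0.0144, adjusted p = 0.13), but -0.271 there without NM5 and NM2. The other 8 relations had r between -0.387 (TGFB3) and 0.46 (LTBP1), with unadjusted permutation p of 0.221 or more.

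**Figure D3:**
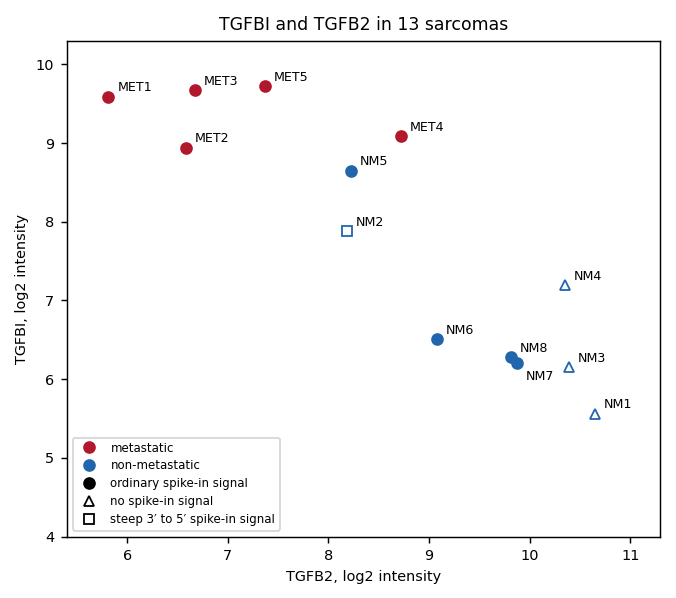
TGFBI against TGFB2 log2 intensity in the 13 tumours, coloured by group, with symbols for the spike-in signal of the sample. NM2 and NM5 sit between the metastatic tumours and the other 6 non-metastatic tumours, with TGFB2 at 8.18 and 8.22 and TGFBI at 7.88 and 8.65.

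The genes whose centred values were most like those of TGFBI, out of 29230 named probe sets, were SKAP1 (r = 0.876), CCDC88C (0.876), DPP4 (0.857), PARP4 (0.847), CXCL13 (0.839) and SPAG17 (0.836), each over 13 samples. Spearman's rho for them ran from 0.621 (SPAG17) to 0.901 (DPP4), and r over the 9 samples with ordinary spike-in signal from 0.763 (DPP4) to 0.896 (CXCL13). They are the highest of many correlations over few samples. Between the groups they differed by -1.42 ± 0.69 (SE, DPP4) to 0.40 ± 0.21 (CCDC88C).

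Of the other genes of the pathway, 94 of 101 listed were measured, and 4 passed (4.26%, against 4.9% of all probe sets). The lists were drawn up with earlier results of these data known, so the p-values of their genes are a description, not an independent test. Without NM1, NM3 and NM4, 0 passed (limma). There 13 of the 94 had an unadjusted p under 0.05, a share no larger than that of all probe sets (6167 of 42924). The unadjusted counts of single lists below come without a share over all probe sets, so nothing is read from them. SMURF2, a ubiquitin ligase that with SMAD7 targets the type I receptor for breakdown, rose from 6.95 ± 0.92 (SD, n = 8) to 8.75 ± 0.48 (SD, n = 5), by 1.80 ± 0.40 (SE, limma adjusted p = 0.0243). All 5 metastatic tumours (8.37 to 9.50) were above the non-metastatic median, non-metastatic values reached 8.88, and it also passed in the 9 samples with ordinary spike-in signal (1.67, limma adjusted p = 0.012). Because the non-metastatic mean is not above 7.16, this increase has no exact size, and the call was lost without MET2 or MET5 (limma adjusted p = 0.0581 and 0.0518). BAMBI, a receptor-like protein without a kinase that dampens TGF-beta signalling, rose from 5.89 ± 0.27 (SD, n = 8) to 7.35 ± 0.96 (SD, n = 5), by 1.46 ± 0.32 (SE, limma adjusted p = 0.0221). Its non-metastatic values, 5.48 to 6.23, were all not above 7.16, which leaves its increase without an exact size too. Metastatic values ran from 6.06 to 8.68, so the groups overlapped and the lowest metastatic value was not above 7.16 either. BAMBI did not pass in the 9 samples (1.33, limma adjusted p = 0.137) or without MET3 (limma adjusted p = 0.0508). SMURF2 and BAMBI were the passing members of the 12 measured accessory receptors and receptor regulators, whose median difference was 0.11.

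In the list of latency and activation, LTBP4, another matrix anchor of latent ligand, fell by 1.81 ± 0.49 (SE), from 10.56 ± 0.63 (SD, n = 8) to 8.75 ± 1.34 (SD, n = 5), which gave limma adjusted p = 0.0474. No other of the 18 genes passed. Its call held in 2 of the 13 fits without 1 sample (those without MET2 or NM2), it did not pass in the 9 samples (-2.25, limma adjusted p = 0.0904), and its other 3 probe sets differed by -0.13, 0.01 and 0.21. Among the 5 proteoglycans that bind TGF-beta, decorin (DCN) fell by 1.28 ± 0.20 (SE, limma adjusted p = 0.00429), with 11.51 to 12.99 in metastatic and 13.47 to 13.76 in non-metastatic tumours. It passed in the 9 samples as well (-1.35, limma adjusted p = 0.0346) and in all 13 fits without 1 sample. The other 4 proteoglycans had positive differences without passing at their chosen probe sets, and the median of the list was 0.48. Of these, biglycan (BGN), named after its values were seen, stood at 1.29 ± 0.42 (SE, limma adjusted p = 0.0917). A second BGN probe set passed over all samples (1.39, limma adjusted p = 0.0384) and in the 9 samples (1.48, limma adjusted p = 0.038).

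Of 28 measured genes known to be induced by TGF-beta, 0 passed (limma), 4 higher and 5 lower had an unadjusted p under 0.05, and the median difference was 0.04. The smallest p belonged to ANGPTL4, a lipase inhibitor, at -0.89 ± 0.26 (SE, limma adjusted p = 0.0634), and SPHK1, a sphingosine kinase, at 0.65 ± 0.20 (limma adjusted p = 0.0722). Positive differences were seen for 16 of the 28 genes. None of the 10 measured partners and relatives of TGFBI passed (limma), with 1 higher and 1 lower at an unadjusted p under 0.05. They included the integrin subunit ITGAV (0.50 ± 0.17, limma adjusted p = 0.0966) and the collagen chain COL6A1 (-0.61 ± 0.19, limma adjusted p = 0.074).

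The SMADs and their corepressors had 0 of 12 genes past the threshold (limma) and 3 with an unadjusted p under 0.05, 2 of them higher. TGIF1, a corepressor, stood at 0.78 ± 0.24 (SE, limma adjusted p = 0.0746) and the signal transducer SMAD2 at 0.39 ± 0.16 (limma adjusted p = 0.173). In the activin and inhibin branch, which shares these SMADs, 0 of 15 genes passed (limma), with 2 higher and 2 lower at an unadjusted p under 0.05. The activin receptors ACVR2A (0.95 ± 0.29, limma adjusted p = 0.0771) and ACVR1B (0.31 ± 0.12, limma adjusted p = 0.148) had the smallest p. In this list 9 of the 15 genes had both means not above 7.16. ACVR1B is among them, with values up to 6.40 in metastatic and 6.13 in non-metastatic tumours, so its level was not told apart from probe sets without target.

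**Figure D4:**
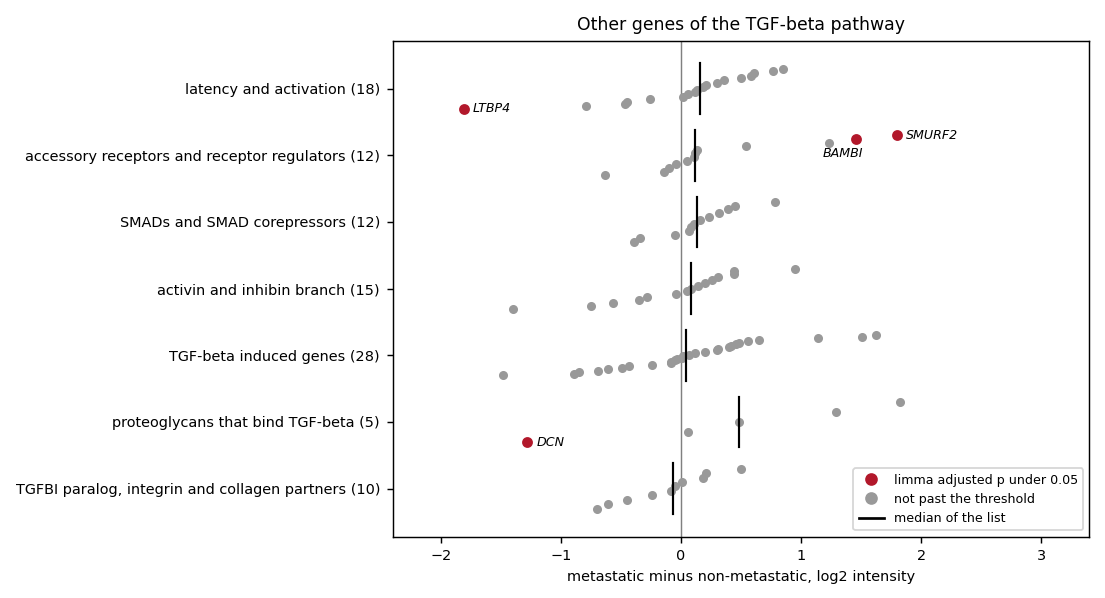
Metastatic minus non-metastatic difference in log2 intensity for the measured genes of 7 pathway lists, 1 point per gene, with the number measured after each name. Red points passed the threshold (SMURF2 and BAMBI higher, LTBP4 and DCN lower), and black bars are list medians, which lie between -0.07 and 0.48.

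Markers of other cell types that make or respond to TGF-beta were read in the same samples. These lists too were drawn up with earlier results of these data known, so their p-values and counts are a description. In bulk tissue, fewer cells of a type and less RNA per cell cannot be told apart. Over all probe sets 4.9% passed, 1.56% higher and 3.34% lower. Macrophages are a known source of TGFBI, and 0 of 15 macrophage markers passed (limma), 0 had an unadjusted p under 0.05, and their mean log2 level ran from 7.75 to 9.68 in metastatic and from 8.04 to 9.55 in non-metastatic tumours. Of 10 connective tissue markers 3 fell, namely DCN, THY1 (-1.41 ± 0.37, SE, limma adjusted p = 0.0425) and FAP (-1.58 ± 0.41, limma adjusted p = 0.0421), and 3 had positive differences without passing. THY1 and FAP did not pass in the 9 samples (limma adjusted p = 0.133 and 0.174), and each passed in 3 of the 13 fits without 1 sample. The list had a mean level of 11.10 to 12.02 in metastatic and 11.49 to 12.25 in non-metastatic tumours. Of 6 epithelial markers 1 fell, KRT8 (-3.34 ± 0.89, SE, limma adjusted p = 0.0468), with both means not above 7.16 but non-metastatic values up to 8.84. It did not pass in the 9 samples (limma adjusted p = 0.0719) and passed in 3 of 13 fits without 1 sample. The lists of endothelium (12 genes), T and NK cells (11), B and plasma cells (6), smooth muscle and pericytes (11), platelets and red cells (5) and adipocytes (6) had 0 past the threshold (limma), and 1, 3, 2, 0, 1 and 0 of their genes had an unadjusted p under 0.05. No marker was at 0 in any sample, and the part of these cells in the differences of TGFBI, TGFB2 and the receptors was not tested.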

How the data were processed

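The authors deposited 1 table of processed log2 intensities for 13 arrays. The log2 scale was inferred from the values, and neither the software nor the background correction and normalization is given in the sources used here. Per the labels' protocols, total RNA from silica columns was labelled with biotin by 1-cycle 3′ in vitro transcription. Of 43035 probe sets, 111 controls were left out of the tests. No values were renormalized, and 105 values of exactly 0, none in these genes, were kept. Symbols came from the platform annotation, which names no genome build, so no coordinates are given, and sequences were not used here.

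Groups came from sample titles. Probe sets were fitted with limma 3.58.1 (R 4.3.3, lmFit and eBayes, two-sided, group as the only term) and adjusted by Benjamini-Hochberg over 42924, with a threshold of 0.05. Correlations used 100000 permutations within groups (two-sided, numpy 2.4.6). Errors are SD for group means and SE for differences. Spike-in classes were set by a mean 3′ signal of 6 and a 3′ minus 5′ value of 2. Fits were tested on simulated data. The genes, the lists and the spike-in split were chosen with earlier results of these data known. The text names all 10 genes, then per list the genes past the threshold (at most 4 in each direction) or else the 2 of smallest p, and the 6 genes most like TGFBI. Alternatives changed the normalization, the filter, zeros, eBayes options, samples, blocks, a covariate and the choice of probe set. The number of arrays limits the precision.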

Additional observations from a re-analysis of the deposited data

Results flagged for a closer look

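Of 48 groups of values, 24 probe sets in each of 2 groups, 3 held a sample far from the others of its group, where chance gives about 1 in 20. In MET3, 2 probe sets of LTBP2 stood apart, at 8.03 against 6.45 to 6.86 in the other metastatic tumours, and at 7.16 against 4.48 to 4.98. Of these metastatic values only the 8.03 was above 7.16, and the rest were not told apart from probe sets without target. The other 3 probe sets of LTBP2 did not set MET3 apart. In MET4 the dim TGFB3 probe set read 1.06 against 2.40 to 2.69 in the other metastatic tumours, all levels not told apart from probe sets without target.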

How the results depend on the processing

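Of the 24 probe sets, 10 passed over all samples and 10 also passed with columns shifted to 1 median, with dim probe sets left out (18 of the 24 tested), with zeros as missing and with other eBayes options. The number was 6 after quantile normalization, 2 in the 9 samples with ordinary spike-in and 5 with the spike-in class as a block. It was 7 with the ACTB 3′ to 5′ difference as covariate and 0 without NM1, NM3 and NM4, a choice made after seeing the data. The block fit takes its differences from the 9 samples with ordinary spike-in, so it is no separate check of them. TGFBR3 did not pass at any probe set after quantile normalization or with the ACTB covariate. TGFBR2 did not pass at any probe set in the 9 samples or with the spike-in class as a block. Over all probe sets, the count of 2104 became 1192 in the 9 samples, 1367 with the ACTB 3′ to 5′ difference as covariate and 207 without NM1, NM3 and NM4. For the pathway genes, 4 became 2 in the 9 samples, 2 with the spike-in class as a block and 0 without NM1, NM3 and NM4. Without 1 sample the counts ran from 3 to 11 for members, 856 to 4478 for all probe sets, 2 to 9 for pathway genes and 5317 to 7955 for the spike-in split of the non-metastatic group (9311 in full). Replicate numbers share only a number: with the replicate block 1 member probe set (of TGFBR2) and 733 probe sets passed, and same-numbered samples had correlations of deviations between -0.0215 and 0.0408. Directions of TGFBI, TGFB2, TGFBR2 and TGFBR3 held under every alternative run. Correlations of TGFBI changed sign in the 9 samples for TGFB3 (0.219), LTBP2 (-0.0618), TGFBR1 (-0.0858), TGFBR3 (0.0706) and SMAD7 (-0.429). The causes of these changes were not tested, and where samples were left out fewer entered the fit. Signal over background limits what can be said of SMAD7, LTBP2, TGFBR1, ACVR1B and 1 probe set each of TGFB3 and TGFBR3, and of another TGFB3 probe set in some samples. The same limit holds for the lower group of TGFBI, TGFB2, SMURF2 and BAMBI, for the lowest metastatic value of BAMBI, and for LTBP1 in NM1, NM3 and NM4.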
